A study of Arabidopsis thaliana with 8 samples.

Results

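The table of gene expression assembled from these 8 Arabidopsis thaliana libraries held 34759 rows, and 891 of them (2.56%) carried no gene name. These 891 loci are the subject here; they were chosen by the empty name alone, with no measured value used. Whole RNA-seq libraries had been made from Col-0 wild type (wt) plants and from the clf-28 mutant of CURLY LEAF (CLF), with 1 library for each of 4 organs in each genotype: roots, leaves (taken as the aerial part), flowers and siliques. Roots and leaves came from 2-week-old plants on plates, and flowers and siliques from 5-week-old plants in soil, all under long days at 22 °C, so a difference between the first pair of organs and the second cannot be told apart from age and growth conditions. Each of the 8 groups is 1 library, so no comparison within an organ has replicates, and p-values below measure only how far the organs or genotypes vary among these libraries.

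CLF is a methyltransferase of Polycomb repressive complex 2, which places trimethylation on lysine 27 of histone H3 and keeps genes silent in the organs where they are not used. Transcript assemblers group overlapping reads into loci, and a locus is left without a name where no gene of the annotation supplied to the assembler was attached to it. Such loci can be long noncoding RNAs, antisense RNAs, small genes the annotation lacks, transposon RNA or pieces of a neighbouring gene, and noncoding RNAs are known in Arabidopsis as partners and as targets of Polycomb repression.

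Of the 891 loci, 721 lay on a nuclear chromosome at a position that held no named row, and these are called placed loci. Another 154 nuclear loci had exactly the same recorded span as a named row, so that their own position within it is not known, and 16 lay on organelle genomes. Of the placed loci, 67 had a span that also held another unnamed row, so its sequence was counted once for each row. Whether reads were split between such rows was not tested. The placed loci had a median length of 715 bases, with quartiles of 517 and 1022, against 1879 bases for the 25461 nuclear named rows that were alone at their span. Their median distance to the nearest named row was 647 bases; 302 lay within 500 bases of one and 105 lay more than 2000 bases away. Their GC content had a median of 34.4%, with quartiles of 31.5% and 37.1%, and that of the named rows 39.2%, with quartiles of 37.2% and 41.8%. A strand, read from the order of the rows, was had for 361 of the 891 loci, and the other 530 (59.5%) fell in the run of rows without strand, which held 3.87% of the named rows. The libraries do not keep strand, so reads of a locus and of a gene on the opposite strand cannot be told apart.

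The RefSeq annotation of TAIR10.1 has a gene at many of these places. A noncoding RNA gene here is one that RefSeq labels as noncoding or miscellaneous RNA, and the label does not exclude a short coding frame. Of the 721 placed loci, 282 overlapped a noncoding RNA gene and no protein-coding gene, 106 overlapped a protein-coding gene, 5 overlapped only small RNA genes and 328 met no RefSeq gene. In 356 of the 393 that overlapped a gene, no overlapped gene had a row of its own in the deposited table. Of those 393, 128 ran in the sense direction, 27 in the antisense direction and 50 met genes on both strands, and 188 had no strand. The longest reading frame from ATG to a stop in the genomic sequence of the locus, on either strand, reached 100 codons or more in 30 of the 328 loci without a RefSeq gene (9.15%), 27 of the 282 at noncoding RNA genes (9.57%) and 16 of the 106 at protein-coding genes (15.1%). A copy elsewhere in the nuclear genome, at 90% identity or more over at least 50% of the length, was found for 92 placed loci (12.8%), 61 of them without a RefSeq gene, and reads of such copies may have been shared between them. Of the loci described below, XLOC_026579, XLOC_020814 and XLOC_034253 had 1 such copy each, XLOC_021247 had 3 and XLOC_034521 had 14.

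The sequences of 8 placed loci that overlap no protein-coding gene are given as examples. They are the first such locus, by size of the difference, among those higher in each organ and among those higher in clf-28 in each organ. Each is the first 240 bases of the locus, 5′ to 3′ on its own strand, or on the forward strand where it has none, and capitals mark bases inside a RefSeq exon, on either strand. The loci highest above the other organs were XLOC_003441 for roots (chr1:25119317-25119556, forward strand), XLOC_033238 for leaves (chr5:21144752-21144991, reverse strand), XLOC_009432 for flowers (chr2:5920547-5920786, forward strand) and XLOC_021145 for siliques (chr3:8371026-8371265, no strand). The sequences are from RefSeq, build TAIR10.1, whose nuclear coordinates match the TAIR10 positions of the table.
XLOC_003441: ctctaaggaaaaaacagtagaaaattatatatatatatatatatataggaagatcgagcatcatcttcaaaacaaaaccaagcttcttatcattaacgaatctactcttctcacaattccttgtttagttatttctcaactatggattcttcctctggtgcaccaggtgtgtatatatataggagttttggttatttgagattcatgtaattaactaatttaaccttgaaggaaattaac
XLOC_033238: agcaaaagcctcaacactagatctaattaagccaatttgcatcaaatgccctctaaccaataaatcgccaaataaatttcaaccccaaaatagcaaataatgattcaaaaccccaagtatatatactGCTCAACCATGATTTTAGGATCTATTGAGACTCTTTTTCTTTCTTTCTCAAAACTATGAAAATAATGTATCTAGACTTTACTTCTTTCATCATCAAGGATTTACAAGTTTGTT
XLOC_009432: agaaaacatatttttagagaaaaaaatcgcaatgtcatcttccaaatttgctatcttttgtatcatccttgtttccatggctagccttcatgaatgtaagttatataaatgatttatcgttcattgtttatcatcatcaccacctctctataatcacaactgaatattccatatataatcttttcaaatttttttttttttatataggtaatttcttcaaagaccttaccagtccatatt
XLOC_021145: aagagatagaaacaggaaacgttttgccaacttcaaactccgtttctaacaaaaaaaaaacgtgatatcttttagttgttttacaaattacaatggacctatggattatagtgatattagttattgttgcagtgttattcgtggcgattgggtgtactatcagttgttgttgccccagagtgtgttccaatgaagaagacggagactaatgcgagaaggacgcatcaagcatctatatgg

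Those chosen by clf-28 over wt were XLOC_028980 in roots (chr5:17045146-17045385, forward strand), XLOC_021336 in leaves (chr3:20317547-20317786), XLOC_008453 in flowers (chr1:17389111-17389350) and XLOC_026606 in siliques (chr4:10592145-10592384), the last 3 without strand.
XLOC_028980: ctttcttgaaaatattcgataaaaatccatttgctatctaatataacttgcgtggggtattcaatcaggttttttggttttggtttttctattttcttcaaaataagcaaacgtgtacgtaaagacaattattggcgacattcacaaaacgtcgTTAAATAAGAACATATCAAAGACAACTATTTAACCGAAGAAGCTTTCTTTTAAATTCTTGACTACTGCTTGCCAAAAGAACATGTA
XLOC_021336: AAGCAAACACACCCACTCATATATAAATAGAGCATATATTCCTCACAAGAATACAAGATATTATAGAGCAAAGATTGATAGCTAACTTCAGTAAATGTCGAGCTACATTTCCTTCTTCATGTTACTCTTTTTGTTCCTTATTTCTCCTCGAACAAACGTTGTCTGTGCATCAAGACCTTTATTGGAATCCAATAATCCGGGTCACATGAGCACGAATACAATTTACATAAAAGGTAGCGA
XLOC_008453: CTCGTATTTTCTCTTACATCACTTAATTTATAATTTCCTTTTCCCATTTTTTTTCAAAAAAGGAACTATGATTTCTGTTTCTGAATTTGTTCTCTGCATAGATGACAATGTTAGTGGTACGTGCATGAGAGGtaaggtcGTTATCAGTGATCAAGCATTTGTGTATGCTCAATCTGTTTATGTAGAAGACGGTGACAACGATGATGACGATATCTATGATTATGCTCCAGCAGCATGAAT
XLOC_026606: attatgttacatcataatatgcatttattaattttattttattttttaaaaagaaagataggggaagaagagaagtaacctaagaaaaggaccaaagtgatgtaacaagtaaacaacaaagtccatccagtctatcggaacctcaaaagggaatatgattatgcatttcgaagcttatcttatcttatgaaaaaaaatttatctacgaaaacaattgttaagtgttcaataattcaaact

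The 8 stretches range from wholly annotated to not annotated. All 240 bases of XLOC_021336 and 233 of those of XLOC_008453 lay in RefSeq exons, 113 of XLOC_033238 and 86 of XLOC_028980 did, and none of the other 4 did.

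Levels are given as FPKM, fragments scaled by transcript length and by the reads mapped, as deposited, and a locus was counted as expressed at 1 FPKM or more. Only values whose status the authors gave as usable were counted. Of the 891 loci, 289 (32.4%) reached 1 FPKM in at least 1 library, against 70.9% of the 33868 named rows, and 602 did not. Only 37 reached 10 FPKM and 2 reached 100 FPKM. The share was 51.9% at protein-coding genes (55 of 106), 36.9% at noncoding RNA genes (104 of 282) and 25.3% where RefSeq has no gene (83 of 328). At 1 FPKM or more, the wt root library held 80 loci and its clf-28 counterpart 92; the leaf libraries held 65 and 51, the flower libraries 126 and 120, and the silique libraries 109 and 123. The authors' status was usable in all 8 libraries for 861 loci. Another 28 were marked as having too few reads in all 8, and 2, XLOC_021201 and XLOC_034466, had a failed estimate in some library. The 28 are among the 602 whatever their value, and the highest value among them was 153 FPKM. The files give no counts, so the depth behind each value is unknown.

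Most expressed loci were expressed in a single organ. At 1 FPKM or more in both genotypes there were 74 root loci, 45 leaf loci, 102 flower loci and 71 silique loci. Of the 184 loci expressed in at least 1 organ, 125 (67.9%) were expressed in 1 organ and 19 (10.3%) in all 4, whereas 15.6% of the 22760 expressed named rows were in 1 organ and 67.8% in all 4. The loci were also lower than the named rows, and a low row drops below 1 FPKM more easily. Among rows whose highest value was between 1 and 5 FPKM, 87 of 105 loci (82.9%) and 51.3% of named rows were in 1 organ, and among rows at 5 FPKM or more, 38 of 79 loci (48.1%) and 10.1% of named rows were.

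**Figure D1:**
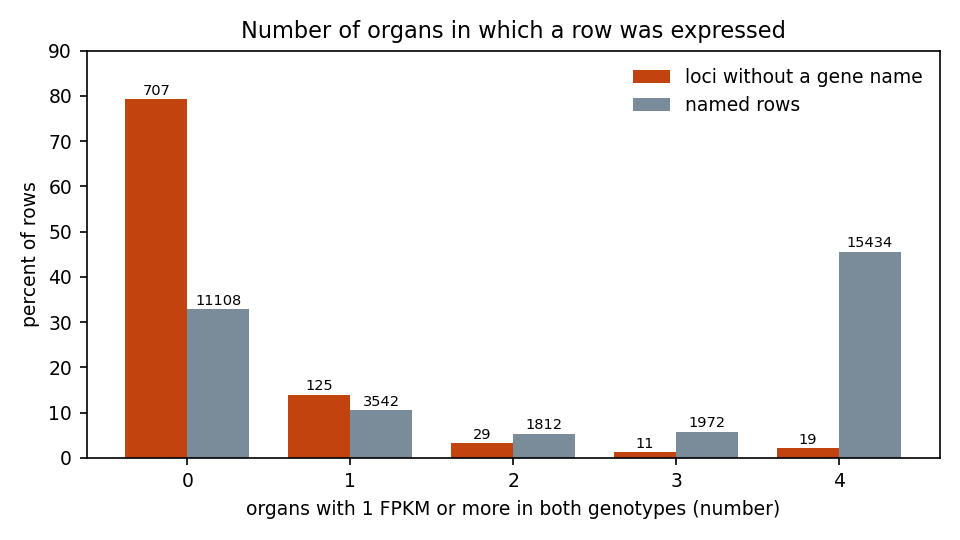
Percent of rows (vertical axis) by the number of organs in which a row had 1 FPKM or more in both genotypes (horizontal axis), for the 891 loci without a gene name (red) and the 33868 named rows (grey), with the number of rows above each bar. Loci without a name fall from 707 in no organ to 125 in 1 organ and 19 in all 4, while 15434 named rows are in all 4.

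The difference between organs was tested with limma on log2(FPKM + 1) over all 24078 rows usable in all libraries and at 1 FPKM or more in at least 1, with genotype as a term. The organ effect passed an adjusted p of 0.05 (Benjamini-Hochberg) in 198 of the 287 loci tested (69.0%) and in 72.1% of all rows tested. Against the mean of the other 3 organs, 49 loci were higher in roots (17.1%, against 30.0% of all rows) and 26 in leaves (9.06%, against 12.4%). For flowers the number was 76 (26.5%, against 28.9%) and for siliques 58 (20.2%, against 13.2%). By organ of highest mean, 106 of the 287 loci (36.9%) were highest in siliques, as were 17.4% of the named rows tested, and 61 (21.3%) in roots, as were 36.1% of named rows. Of the 58 loci higher in siliques, 29 met no RefSeq gene and 9 met a noncoding RNA gene, and of the 76 higher in flowers, 22 and 35 did. Among all 289 loci at 1 FPKM or more in some library, 83 and 104 did. These shares are of loci that passed the filter on level, and each locus could pass through the organ in which it was high.

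Of the 5 loci named for roots, 4 lay at noncoding RNA genes. XLOC_003441 (chr1:25119317-25120036), a forward-strand locus antisense to the noncoding RNA gene AT1G08903, measured 15.3 FPKM (wt) and 19.6 FPKM (clf-28) in roots, and no other library exceeded 0.0223. Both root libraries stood far above the other 6, and the difference from the other organs was 4.18 on the log2(FPKM + 1) scale (SE 0.13, limma adjusted p = 8.79e-05). XLOC_015523 (chr3:7471076-7472524), over the noncoding RNA genes AT3G04105 and AT3G04115, measured 16.8 (wt) and 19.7 FPKM (clf-28) in roots and at most 0.776 elsewhere, a difference of 3.77 (SE 0.12, limma adjusted p = 8.79e-05). XLOC_008503 (chr1:20006432-20007007, noncoding RNA gene AT1G09605) measured 16.7 (wt) and 12.0 FPKM (clf-28) in roots and at most 0.302 elsewhere. XLOC_029103 (chr5:17958304-17960394, AT5G00585) measured 11.2 FPKM (wt) and 21.7 FPKM (clf-28) in roots and at most 1.55 in the other libraries. The loci named for each organ were chosen by their difference from the other organs, so such a gap follows from the choice. AT1G67148, nearest to XLOC_003441, was at 36.7 and 53.9 FPKM in wt and clf-28 roots and at most 0.255 elsewhere. AT1G53610, nearest to XLOC_008503, was at 2.85 and 2.52 in roots and at most 0.0296 elsewhere. DOF2, nearest to XLOC_015523, was at 8.63 and 7.45 in roots but 33.0 in wt siliques. AT5G44568, nearest to XLOC_029103, was at 1.51 and 2.30 in roots but 38.1 in clf-28 leaves.

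Fewer loci were higher in leaves, and those named had lower levels. XLOC_033238 (chr5:21142616-21144991), over the noncoding RNA gene AT5G00650, measured 7.44 FPKM (wt) and 5.43 FPKM (clf-28) in leaves, 1.08 and 0.938 in flowers and 0.0304 or less in roots and siliques (difference 2.54, SE 0.13, limma adjusted p = 0.00201). Leaves were the highest organ in both genotypes and flowers came next. The span of XLOC_033238 also held another unnamed row, and a split of reads between them was not tested. XLOC_020814 (chr3:22365445-22366220, AT3G09415) measured 8.75 (wt) and 8.6 FPKM (clf-28) in leaves, and its wt silique value of 5.15 lay above its clf-28 silique value of 0.448. XLOC_014286 (chr2:11953782-11954783), over the noncoding RNA genes AT2G08220 and AT2G08230, measured 4.33 (wt) and 2.62 FPKM (clf-28) in leaves and at most 0.828 elsewhere. XLOC_034205 (chr5:7204926-7205379) lay 183 bases from the row of AKINBETA1, a subunit of the SnRK1 kinase, and measured 4.29 (wt) and 5.97 FPKM (clf-28) in leaves against at most 1.73 elsewhere.

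Of the 5 loci named for flowers, 3 met no RefSeq gene. XLOC_009432 (chr2:5920547-5921114) measured 12.3 FPKM (wt) and 10.8 FPKM (clf-28) in flowers, 0 in roots and leaves, and 0.0353 and 0.0747 in siliques. XLOC_034114 (chr5:1218145-1218909) measured 8.49 (wt) and 7.48 FPKM (clf-28) in flowers and at most 0.089 elsewhere. XLOC_034313 (chr5:14612040-14612626) measured 6.49 (wt) and 6.24 FPKM (clf-28) in flowers and at most 0.0986 elsewhere. All 3 were close to 0 outside flowers, with differences of 3.63 (SE 0.11), 3.14 (SE 0.11) and 2.84 (SE 0.10), and limma adjusted p-values of 0.000241, 0.000245 and 0.000241. Their nearest named rows were lower in flowers: AT2G14070 was at 0.256 and 0.388 FPKM, AT5G04347 at 1.14 and 1.83, and AT5G36990 at 0. XLOC_014244 (chr2:9710929-9712018, noncoding RNA gene AT2G00750) measured 6.63 (wt) and 6.64 FPKM (clf-28) in flowers, and the defensin-like gene AT2G22805, 273 bases away, was at 14.9 and 10.5 FPKM there and at most 0.3 elsewhere.

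Silique loci often differed between the genotypes. XLOC_021145 (chr3:8371026-8371450, no RefSeq gene) measured 56.2 FPKM (wt) and 19.3 FPKM (clf-28) in siliques, 3.48 and 4.76 in flowers and 0 in roots and leaves (difference 4.31, SE 0.39, limma adjusted p = 0.00325). XLOC_029566 (chr5:21357700-21358441), over the protein-coding gene AT5G52655, measured 24.7 (wt) and 13.1 FPKM (clf-28) in siliques and at most 0.0615 elsewhere. XLOC_006456 (chr1:17654070-17654551, no RefSeq gene) measured 6.21 FPKM (wt) and 24.3 FPKM (clf-28) in siliques and 0 in the other 6 libraries. For XLOC_021145 and XLOC_029566 wt was the higher genotype, and for XLOC_006456 clf-28 was. XLOC_026648 (chr4:13716366-13717579, noncoding RNA gene AT4G07815) measured 113 FPKM (wt) and 54.5 FPKM (clf-28) in siliques, against 2.30 to 9.0 elsewhere.

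**Figure D2:**
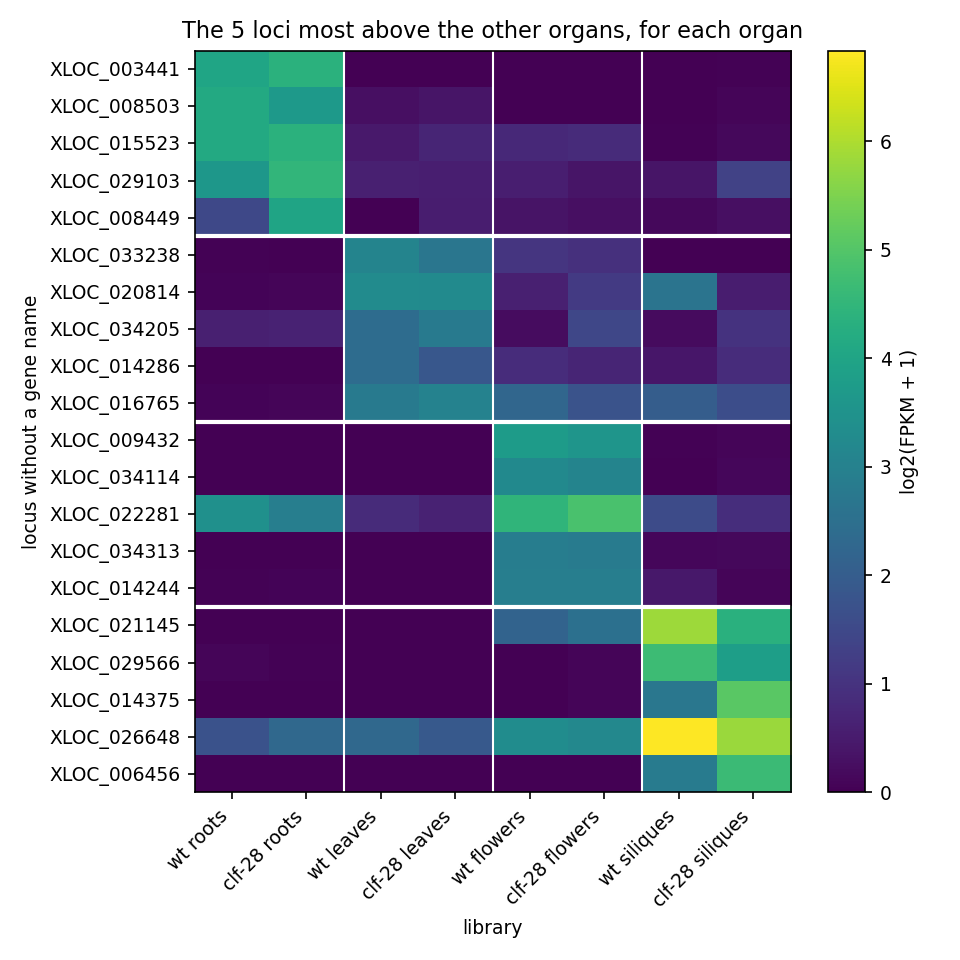
Level in each of the 8 libraries (horizontal axis), as log2(FPKM + 1) in colour, of the 5 loci with the largest difference from the other organs for each organ (vertical axis; blocks from top to bottom are roots, leaves, flowers and siliques). The flower loci XLOC_009432, XLOC_034114 and XLOC_034313 are bright in the 2 flower libraries and dark in the others, while XLOC_020814 and XLOC_022281 reach beyond 1 organ.

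A few loci were high in every library. XLOC_019473 (chr3:12559191-12560070, reverse strand, no RefSeq gene, and no copy elsewhere) was at 60.5 and 64.9 FPKM in wt and clf-28 roots, 61.2 and 42.8 in leaves, 66.5 and 83.3 in siliques and 94.1 and 119 in flowers. Only XLOC_020027, XLOC_026648 and XLOC_021145 had a usable value above its lowest one. XLOC_020027, whose span is that of the subtilase gene AT3G46840, measured 66.2 (wt) and 62.2 FPKM (clf-28) in roots and 25.7 to 61.1 in the other organs, while AT3G46840 was at 4.26 to 12.9 FPKM. XLOC_034173 (chr5:5448508-5450378), which overlaps 2 small nucleolar RNA genes, AT5G02565 and AT5G02575, measured 28.7 (wt) and 21.3 FPKM (clf-28) in flowers, 15.7 and 14.5 in roots, and 12.7 and 13.8 in siliques, while its leaf values were 11.5 (wt) and 4.24 FPKM (clf-28).

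For clf-28 against wt within an organ there is 1 library a side and no test, so loci were counted by size: at least 2-fold in FPKM + 1, among loci usable in both libraries and at 1 FPKM or more in at least 1. In roots 12 of 97 loci were higher in clf-28 (12.4%, against 5.55% of all rows) and 2 were lower (2.06%, against 1.22%). In leaves 3 of 71 were higher (4.23%, against 5.45%) and 5 lower (7.04%, against 1.43%). In flowers 4 of 144 were higher (2.78%, against 1.51%) and 4 lower (2.78%, against 1.04%). In siliques 46 of 161 were higher (28.6%, against 11.4%) and 23 lower (14.3%, against 8.0%). Silique loci thus passed the size in both directions more often than all rows did, and 32 of the 46 higher ones were below 1 FPKM in wt. The median log2 ratio was 0.10 for root loci, -0.16 for leaf loci, -0.08 for flower loci and 0.22 for silique loci, against -0.09, -0.02, 0.01 and -0.01 over all rows. No called locus had authors' intervals that were apart, and the authors' lower bound was 0 for 759 of the 766 loci values at 1 FPKM or more (99.1%) and for 90.2% of those of named rows. The loci were lower than the named rows, and the part of level in these shares was not tested.

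**Figure D3:**
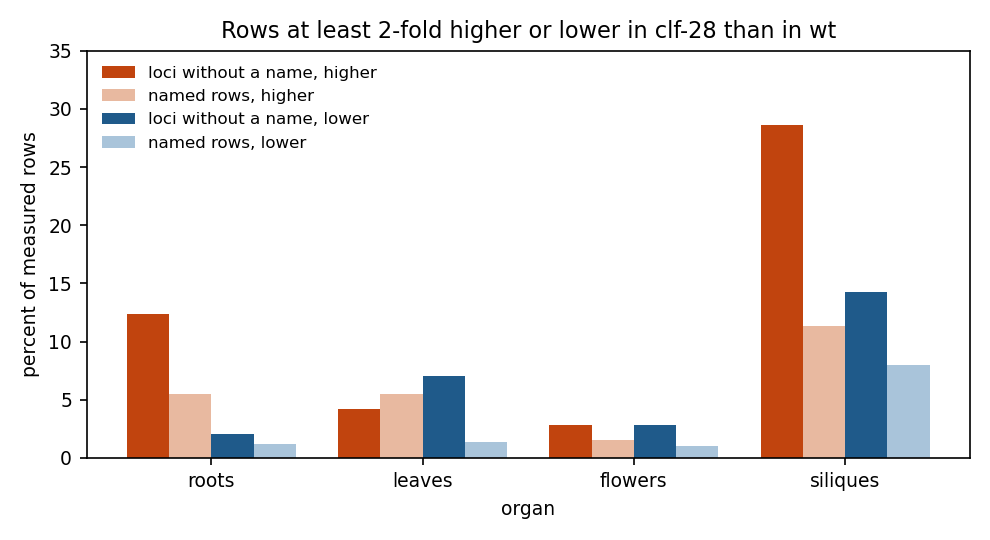
Percent of measured rows (vertical axis) at least 2-fold higher (red shades) or lower (blue shades) in clf-28 than in wt in each organ (horizontal axis), for loci without a name (dark) and named rows (light). Siliques have the tallest bars, 28.6% higher and 14.3% lower among the loci, with 1 library a side and no error.

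**Figure D4:**
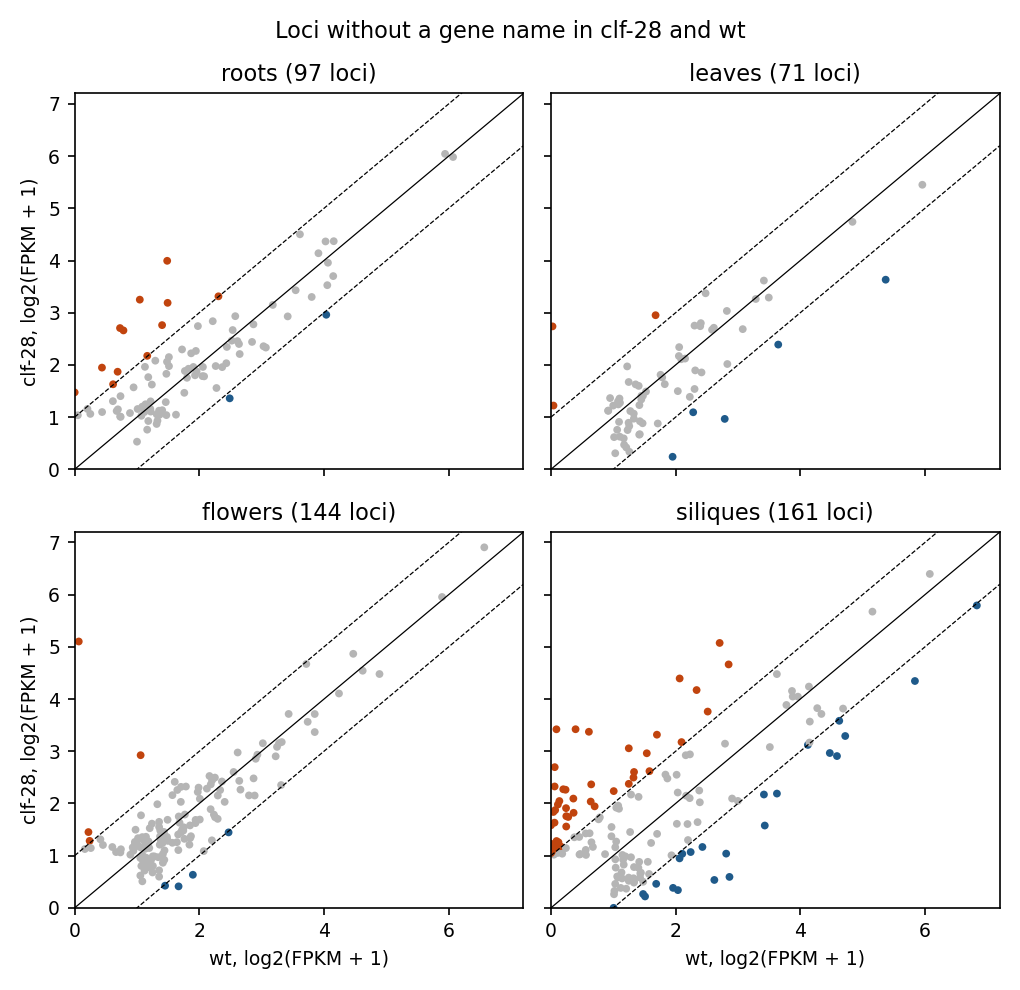
Each point is a locus without a name measured in that organ, at log2(FPKM + 1) in wt (horizontal axis) and clf-28 (vertical axis). The solid line marks equal values and the dashed lines 2-fold; red points are at least 2-fold higher and blue points at least 2-fold lower in clf-28, and siliques have many of each.

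In roots, 2 of the largest differences lay beside genes that differed the same way. XLOC_028980 (chr5:17045146-17047251), over the noncoding RNA gene AT5G00580, measured 0.656 FPKM (wt) and 5.52 FPKM (clf-28) in roots, 0.331 and 1.48 in flowers, 0.369 and 1.56 in siliques, and 0.0666 and 0.0907 in leaves. Clf-28 was higher in all 4 organs. It lies between the genes of marneral synthesis, a triterpene gene cluster: in wt and clf-28 roots MRN1, the marneral synthase, was at 0.495 and 38.6 FPKM, CYP71A16, the marneral oxidase, at 6.62 and 47.1, and CYP705A12, another cytochrome P450, at 1.33 and 20.7. Outside roots these 3 genes were at 0.0865 FPKM or less. The nearest of them, MRN1, lies 6266 bases from the locus. XLOC_029102 (chr5:17953196-17957986), 17 bases from AT5G44565 and over the protein-coding gene AT5G44567, measured 1.06 FPKM (wt) and 8.52 FPKM (clf-28) in roots, and AT5G44565 was at 1.56 and 10.3. XLOC_008449 (chr1:17292388-17293074, protein-coding gene AT1G47130) was at 1.80 and 14.9 FPKM, XLOC_032338 (AT5G36907) at 0.720 and 5.32, and XLOC_033210 (AT5G51465) at 0.355 and 2.86. Their nearest named rows did not share the difference in roots: WPP2 was at 28.2 and 31.3 FPKM, AT5G36900 at 0 and ATTPPA at 12.4 and 11.1. The 2 lower loci, XLOC_014305 and XLOC_007342, both had the span of a named row.

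The largest single difference was in flowers. XLOC_008453 (chr1:17389111-17389568), over AT1G07367, measured 0.0465 FPKM (wt) and 33.4 FPKM (clf-28) in flowers, a log2 ratio of 5.04. RefSeq labels AT1G07367 a noncoding RNA gene. The bases of XLOC_008453 printed above hold a reading frame from ATG to TGA, so the label does not settle whether the locus is coding. In the other organs it was at 4.58 and 9.36 FPKM in wt and clf-28 leaves, 0.286 and 2.53 in siliques and 0.595 and 1.17 in roots. Clf-28 was the higher genotype in each organ. All 3 genes beside it differed the same way in flowers: AT1G47395, in the higher of its 2 rows, was at 3.02 and 290 FPKM, AT1G47400 at 1.37 and 121, and the pseudogene AT1G47405, 111 bases away, at 0 and 2.17. In leaves AT1G47395 was at 60.3 and 114 FPKM and AT1G47400 at 34.6 and 60.2. Other flower loci higher in clf-28 were XLOC_034469 at 1.08 and 6.59 FPKM, XLOC_034205 at 0.166 and 1.73 and XLOC_021320 at 0.181 and 1.43, and the 4 lower ones, XLOC_034306, XLOC_034253, XLOC_021247 and XLOC_008631, were at 4.54 FPKM or less there. AKINBETA1, 183 bases from XLOC_034205, was at 24.5 and 62.3 FPKM in flowers. AT3G51410, 15 bases from XLOC_021320, was at 1.96 and 2.96, and AT5G60430, at the span of XLOC_034469, at 8.39 and 9.45.

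In leaves, XLOC_021336 (chr3:20317547-20318101, noncoding RNA gene AT3G08435) measured 0.0171 FPKM (wt) and 5.67 FPKM (clf-28), and 1.03 or less in the other organs. Its neighbour ARA6, a Rab GTPase gene 311 bases away, measured 41.5 (wt) and 47.9 FPKM (clf-28) in leaves, so only the locus was past 2-fold. Of the 5 lower loci, XLOC_034297, which has the span of the transposase-derived pseudogene MUG8, measured 40.3 FPKM (wt) and 11.4 FPKM (clf-28) in leaves while MUG8 was at 10.2 and 10.3. XLOC_008388 (chr1:11670469-11670738, no RefSeq gene) was at 5.90 and 0.953 FPKM.

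In siliques, 3 loci shared the span of FUS3, a B3 transcription factor of seed maturation and a known Polycomb target. XLOC_021179 measured 0.0626 FPKM (wt) and 9.71 FPKM (clf-28) in siliques, XLOC_021180 measured 0.0425 and 5.48, XLOC_015873 0.0266 and 2.57, and FUS3 2.98 and 78.8. In flowers, where FUS3 was at 2.87 (wt) and 2.30 FPKM (clf-28), the 3 loci were at 0.753 FPKM or less in both genotypes. Other genes of the maturing seed were higher too: ABI3, another B3 regulator, was at 1.09 and 41.9 FPKM and DOG1, a dormancy gene, at 0.0542 and 30.7, while LEC1, an embryo regulator, was at 19.3 and 23.9. The seed storage genes CRA1 and CRU3 were at 0.648 and 0.0283 FPKM in wt siliques and were marked as having too many reads, with no level, in clf-28 siliques. The clf-28 silique library thus differed from wt in seed maturation genes, and the part of seed age or seed content in the silique loci was not tested; in such bulk samples fewer cells of a type and less RNA per cell cannot be told apart.

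Several other silique loci lay against a gene that was also higher in clf-28. XLOC_014375 (chr2:18353370-18353676), 1 base from the row of BGLU29, a beta-glucosidase gene, measured 5.53 FPKM (wt) and 32.7 FPKM (clf-28) in siliques, and BGLU29 was at 35.6 and 128. XLOC_026605 (chr4:10590890-10591581) and XLOC_026606 (chr4:10592145-10593153) were at 0.525 and 9.36 FPKM and at 0.315 and 9.72. They lie 233 and 1488 bases from the row of the pectin acetylesterase gene AT4G19420, which was at 261 and 388 FPKM, less than 2-fold apart, and the first lies inside the RefSeq model of that gene. XLOC_014534 (chr3:872194-873595, noncoding RNA gene AT3G00170) was at 3.18 and 20.0 FPKM, and AT3G03620, a MATE efflux gene 154 bases away, at 0.0521 and 4.03. The span of XLOC_014534 also held another unnamed row, and how reads were split between these rows was not tested. No RefSeq gene was met by 328 of the 721 placed loci, and by 83 of the 289 loci at 1 FPKM or more in some library. Of the 23 silique loci lower in clf-28, 14 met none, 6 met a protein-coding gene, 2 met a noncoding RNA gene and 1 was not a placed locus. Among them XLOC_008960 (chr2:2130602-2131195) measured 23.1 FPKM (wt) and 6.51 FPKM (clf-28), XLOC_014253 (chr2:9936625-9936801) 6.28 and 0.508, and XLOC_014358 (chr2:17108413-17108628) 6.02 and 1.05, while XLOC_029203 (chr5:18781210-18781948, protein-coding gene AT5G46297) was at 9.78 and 1.98.

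**Figure D5:**
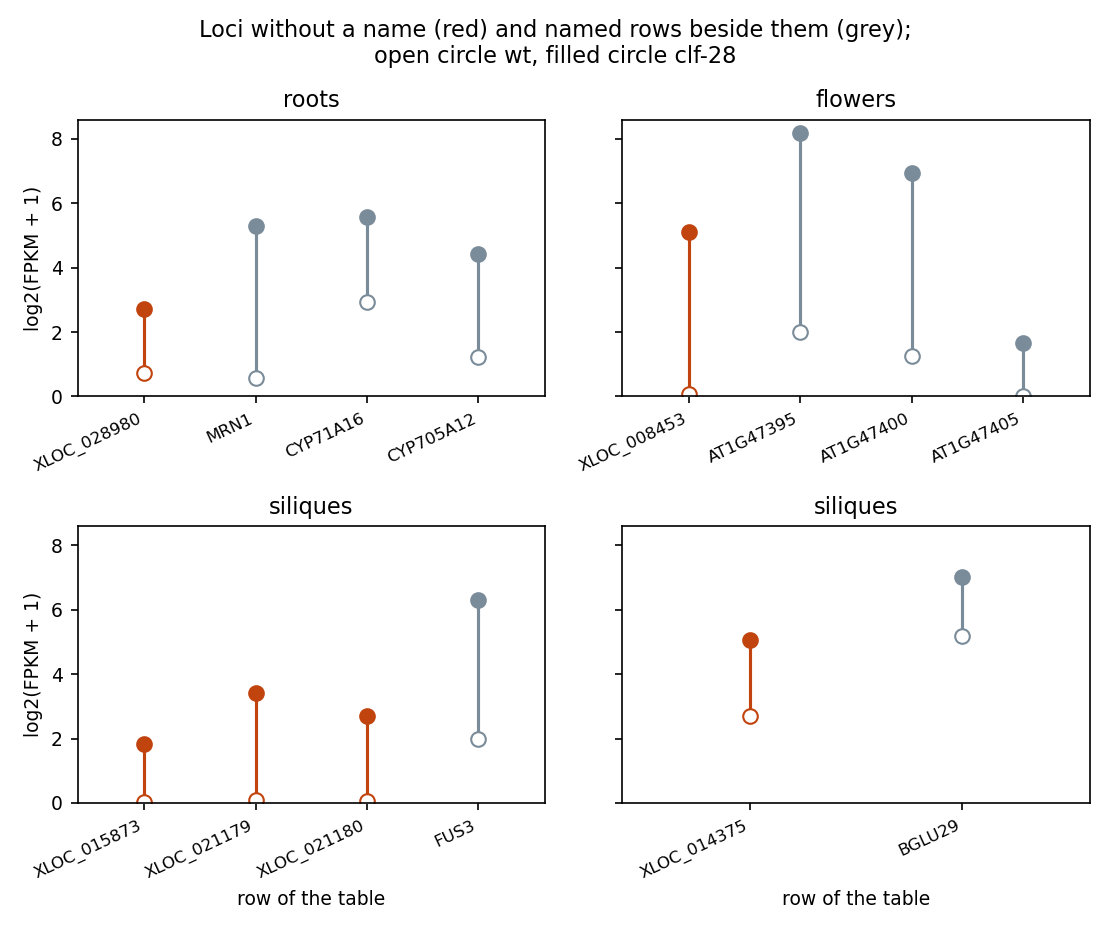
Level in wt (open circles) and clf-28 (filled circles), as log2(FPKM + 1) (vertical axis), of loci without a name (red) and named rows beside or over them (grey, horizontal axis) in the organ given above each panel. The 4 panels are chosen cases in which locus and named rows are all higher in clf-28, as for XLOC_008453 with AT1G47395 and AT1G47400 in flowers. Loci whose neighbour did not share the difference, such as XLOC_021336 beside ARA6 in leaves, are not drawn. MRN1, the nearest named row of XLOC_028980, lies 6266 bases from it.

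Neighbours did not always share the difference. In siliques 23 placed loci that were higher in clf-28 had a measured nearest named row, and 8 of these rows were also at least 2-fold higher, whereas 18 of the 92 nearest rows of all placed loci measured (19.6%) were. In roots 2 of 7 were, against 6 of 53 (11.3%). In flowers 2 of 3 were, against 4 of 79 (5.06%), and in leaves 0 of 1, against 5 of 36 (13.9%). For 15 silique loci lower in clf-28, 4 nearest rows were lower too, against 6 of 92 (6.52%). For lower loci it was 0 of 2 in leaves and 0 of 2 in flowers. Across the 92 silique pairs the log2 ratios of locus and nearest row had a Spearman rho of 0.376 and a Pearson r of 0.352; in roots, over 53 pairs, rho was 0.129 and r 0.367. For the 20 silique pairs with the same span rho was 0.881 and r 0.846. The points of each of these descriptions share 1 wt and 1 clf-28 library, and reads at a shared span could have been split between the rows.

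Over the 4 organs as replicates of the genotype, limma with organ as a block called no row, 0.0% of the 24078, and so none of the 287 loci. At an unadjusted p under 0.05 there were 6 higher and 6 lower loci (2.09% each, against 5.49% and 6.3% of all rows tested), and the smallest adjusted p of a locus was 0.414. The same direction in 4 of 4 organs was seen in 36 loci (12.5%) and in 24.4% of all rows tested. A row at 0 FPKM in both genotypes of an organ has no direction there. In wt roots 384 of 863 usable loci were at 0, and 8158 of 33670 named rows. The part of such zeros in the lower share was not tested. XLOC_026579 (chr4:8959579-8960301, no RefSeq gene) was at 0.0764 and 0.555 FPKM in wt and clf-28 roots, 0.153 and 0.651 in leaves, 2.13 and 3.78 in flowers and in siliques 4.71 and 12.6, a mean difference of 0.73 (SE 0.17, limma adjusted p = 0.414, higher in 4 of 4 organs). XLOC_026692 (chr4:16891407-16891909, noncoding RNA gene AT4G09215) measured 1.64 (wt) and 5.79 FPKM (clf-28) in roots, 0.141 and 0.657 in leaves, 2.97 and 3.94 in flowers, and in siliques 0.564 and 4.15. Its adjusted p also missed the threshold (0.414 by limma). XLOC_026600 (chr4:10178461-10178615), at 155 bases the shortest placed locus, was lower in clf-28 in 4 of 4 organs, with a difference of -0.55 (SE 0.10, limma adjusted p = 0.414); its wt and clf-28 values were 13.0 and 8.86 FPKM in roots, 3.94 and 1.91 in leaves, 18.3 and 13.2 in siliques and 13.4 and 9.32 in flowers. Past 2-fold, 62 of the 288 loci measured in some organ were higher in clf-28 in at least 1 organ (21.5%, against 15.6% of all rows), and 32 were lower (11.1%, against 8.99%). Of the 62, XLOC_008453, XLOC_026692 and XLOC_034469 were higher in 2 organs (1.04% of the 288, against 3.37% of all rows), and of the 32, XLOC_014305 was lower in 2 (0.347%, against 0.803%). Fewer loci than rows in general were measured in more than 1 organ: 98 of the 288 were, and 20667 of the 24292 rows. Among those measured in 2 organs or more and higher in at least 1, 3 of 30 loci and 819 of 3241 rows (25.3%) were higher in 2 or more, and among those lower, 1 of 16 loci and 195 of 1873 rows (10.4%) were lower in 2 or more.

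A pair of motifs known from plant Polycomb recruitment were searched on both strands in 1000 bases centred on each placed locus. The telobox, AAACCCTA, was in 15.1% of the 721 windows and in 10.8% of the windows of 25461 named rows, and the repeat GAGAGAGA was in 16.5% and 12.1%. Among the 35 placed loci higher in clf-28 siliques, 6 windows (17.1%) held the telobox and 9 (25.7%) the GAGA repeat, and among the 22 lower ones 1 window held each. These letters are a description and not binding sites, and windows of named rows lie within longer genes.

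The labels were checked against organ markers. IRT1, the root iron transporter, measured 373 FPKM (wt) and 159 FPKM (clf-28) in roots and at most 16.5 elsewhere, and GRP17, a pollen coat gene, was at 563 and 333 in flowers and at most 6.37 elsewhere. The leaf markers RBCS1A and CAB1 were marked as having too many reads in both leaf libraries and in wt siliques, and the root marker PYK10 in both root libraries, so that no level is given there. AP3, a flower marker, was at 119 (wt) and 78.9 FPKM (clf-28) in flowers, but also at 78.6 and 33.8 in siliques. The silique markers CRA1 and CRU3 were at 6.11 and 5.43 FPKM in wt roots, above their wt silique values of 0.648 and 0.0283. They therefore do not mark the wt silique library, and no level is given for them in clf-28 siliques. CLF was at 17.2 and 7.84 FPKM in wt and clf-28 roots, 6.57 and 5.50 in leaves, 6.53 and 15.1 in siliques and 9.99 and 14.7 in flowers; mutant RNA can still be read, so this row does not check the genotype.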

How the data were processed

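RNA from 8 libraries, 1 per genotype and organ, was prepared with the TruSeq RNA V2 kit and sequenced on a HiSeq 2000, per the labels' protocols. TopHat, Cufflinks and TAIR10 are named in the submitters' processing notes; versions are not given in the sources used here. The authors deposited FPKM per row, with lower and upper bounds and a status, per the file headers; no counts were given, so depth is unknown. From these values, rows without a gene name were taken, and start positions were shifted by 1 base. RefSeq TAIR10.1 genes were overlapped with nuclear loci only, after 98.0% of 32124 named rows were found to overlap the RefSeq gene of their name. Strand was read from the row order, which runs along each chromosome 3 times; 99.31% of 30800 named rows in the first 2 runs lay on the strand of their run.

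Tests were run in R 4.3.3 on log2(FPKM + 1), by limma 3.58.1 with its trend option, with organ and genotype as terms, 3 residual degrees of freedom and Benjamini-Hochberg adjustment over all 24078 rows; copies were found with blastn 2.17.0 at an E-value of 1e-10. Figures used matplotlib 3.10.9. The fit was also run on simulated data, with clf-28 changes of the same size in every organ. The real changes need not be alike between organs, and no result is drawn from that run here. The test treats organs as replicates of the genotype and genotypes as replicates of the organ.

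Loci are named by this rule: the 5 of highest mean level in an organ; up to 6 largest differences past 2-fold in each direction and organ; the 5 smallest p-values in each direction with the same sign in 4 of 4 organs; the 5 largest passing differences for each organ; those at a list of Polycomb and flowering genes, of which only FUS3 had any; the 3 longest and 3 shortest; and those with an unusable status. Not all are described. The loci, lists and motifs were chosen with earlier results of these data known. Alternatives were other level and fold thresholds, pseudocounts of 0.1 and 5, scalings, filters and leaving out each organ.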

Additional observations from a re-analysis of the deposited data

Results flagged for a closer look

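XLOC_034306 (chr5:13987501-13988659, noncoding RNA gene AT5G05305) differed in opposite directions in 2 organs. In roots it measured 1.24 FPKM (wt) and 3.51 FPKM (clf-28), giving a log2 ratio of 1.01. Its flower values were 2.72 and 0.551 FPKM, giving a log2 ratio of -1.26. In leaves it was at 3.26 and 3.31 FPKM and in siliques at 13.6 and 16.8. With 1 library a side, the difference between the organs was not tested.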

How the results depend on the processing

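Every test was recomputed under other settings, and the limits are these. With 1 library a group, no value within an organ has an error, and a p-value that misses the threshold does not show that genotypes are alike. Counts of loci past 2-fold depend on the level at which small differences are damped. With a pseudocount of 0.1 FPKM the loci higher in clf-28 roots numbered 21, in leaves 5 and in flowers 12, and those lower in leaves 15, in flowers 11 and in siliques 46. With a pseudocount of 5 FPKM the higher loci numbered 2, 1, 1 and 8 in the order roots, leaves, flowers and siliques, and the lower ones 0, 1, 0 and 6. At 1.5-fold the higher loci numbered 25 in roots, 5 in leaves and 15 in flowers, and the lower ones 5, 16, 13 and, in siliques, 47. At 4-fold the higher ones numbered 2, 1, 1 and 9 in that order, and the lower ones 0, 0, 0 and 2. These pseudocount and fold counts are of the same 97, 71, 144 and 161 loci measured in roots, leaves, flowers and siliques. With the authors' intervals required to be apart, the number was 0 in every organ and direction. Counting from 2 FPKM left 2 loci higher in flowers, and ignoring the status gave 7 higher in leaves and 7 in flowers. Chosen after seeing the data, loci with a span of their own gave 0 lower in roots and 3 in leaves, and loci of 300 bases or more gave 3 lower in leaves and 1 in flowers. Loci expressed in both genotypes numbered 113, 80, 194 and 120 from 0.5 FPKM and 43, 26, 53 and 46 from 2 FPKM, in that order of organs. None of these counts by size, level, status, span or length has its share over all rows beside it. They show only how the counts move with the setting. Without the filter on low values 861 loci and 34319 rows were tested, in place of 287 and 24078. The organ effect then passed in 371 loci and 17128 rows. Higher in roots were 103 loci (7129 rows), in flowers 233 (7565 rows) and in siliques 91 (2815 rows). With quantile scaling, of 287 loci and 24078 rows tested, 44 loci were higher in leaves (4411 rows) and 48 in flowers (4044 rows). Leaving out 1 organ at a time gave 104 to 172 loci passing the organ effect, of 207 to 271 tested. The fewest were 104 of 254 without roots (8164 of 22979 rows). The most were 172 of 207 without siliques (18057 of 23057 rows), and without flowers 113 of 227 passed (12745 of 22859 rows). The ranges for single organs were chosen after seeing the data. Loci higher in leaves numbered 15 to 26 (2006 to 3308 of all rows), and in siliques 34 to 48 (1459 to 3803 rows). For roots the range was 40 to 51 (5125 to 7704 rows), and for flowers 61 to 100 (4495 to 9032 rows). The lowest leaf and silique counts came without roots. A fit without the organ block, and all other settings of the genotype test, called 0 loci. Of the recomputed values of single named loci 0 reversed, 403 kept their result and 65 lost their call. The 403 include the genotype test over organs, in which the named loci had not been called to begin with. All 36 calls within an organ were lost where the intervals had to be apart, and 22 with the pseudocount of 5 FPKM. The cause was not tested. The genotype test was itself paired by organ, and the labels give no replicate numbers for another pairing.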

Other observations

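The 3 longest placed loci overlapped several RefSeq genes each. XLOC_028684 (chr5:15022126-15029860, 7735 bases) met the protein-coding gene AT5G37793 and noncoding RNA genes on both strands, and measured 1.99 FPKM (wt) and 5.14 FPKM (clf-28) in siliques and 1.53 to 3.87 in the other libraries. XLOC_031632 (chr5:8244360-8251027, 6668 bases), over an En/Spm-like transposon gene AT5G24275, stayed below 1 FPKM in all 8 libraries, with its highest value, 0.835, in wt flowers. XLOC_006031 (chr1:12920137-12925024, 4888 bases) was highest in flowers too, at 2.39 and 1.5 FPKM, and was lower in clf-28 in 4 of 4 organs (limma adjusted p = 0.414).

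XLOC_034521 (chr5:26949668-26949998), over the noncoding RNA gene AT5G09935, measured 8.78 to 15.6 FPKM in the 8 libraries. At the identity and length used above for copies, it had 14 elsewhere in the nuclear genome, the best at 94.6% identity, and whether its reads were shared with them was not tested.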
